A study of Homo sapiens with 9 samples.

Results

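The lysine methyltransferases, which write methyl groups onto lysines of histones and other proteins, and the lysine demethylases, which erase them, were followed at the mRNA level in human endothelial cells treated with either of a pair of methyltransferase inhibitors. The set was a list of 48 gene symbols, 30 counted as methyltransferases and 18 as demethylases, matched by symbol to the deposited counts. Activity of each member on lysine was not tested. All 48 were found among the 18293 genes present in both tables. All 48 also passed the filter on low counts, which left 18284 genes for testing. The cells were HMEC-1, immortalised endothelial cells from small vessels of human skin, kept in MCDB131 medium at 5.5 mM glucose. One group received AMI-5 at 100 µM, another received AMI-1 at 100 µM, and the control group received DMSO, the solvent of both compounds. Each exposure lasted 16 h, and each group had 3 libraries of poly-A RNA, 9 in all. AMI-5 is a brominated xanthene dye, and AMI-1 is a symmetrical urea that joins sulfonated hydroxynaphthalene units. Only mRNA was measured, so whether either compound acts on the enzymes of this set was not tested. The labels do not say that the libraries came from separate cultures, so p-values measure only the spread between these libraries. In the main test, described below, that is the spread left once differences between replicate numbers are taken out. In bulk RNA, fewer cells that express a gene and less of its RNA per cell cannot be told apart.

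Most lysine methyltransferases carry a SET domain and take the methyl group from S-adenosylmethionine, while DOT1L has a different catalytic fold. The demethylases are either flavin-dependent amine oxidases, KDM1A and KDM1B, or iron- and oxoglutarate-dependent enzymes with a JmjC domain. Methylation of histone H3 at K4, K36 and K79 is a feature of active genes, and methylation of H3 at K9 and K27 and of H4 at K20 is a feature of repressed or compacted chromatin. In endothelium the family has been studied in vessel growth and in the response to high glucose, where SETD7 is a much studied member.

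Promoters are shown for the 4 members whose change with AMI-5 passed the test both with and without the correction for GC content described further on, and which have an entry in the promoter table, so that genes that fell (EHMT1, EZH1 and KDM5C) can be read beside the one that rose (KDM6A). Each runs from 250 bases before to 50 bases after the gene's start and was taken from RefSeq on GRCh38.p14, 5′ to 3′ on the strand of the gene. Capitals mark GGGCGG or its reverse complement CCGCCC, the core of the GC box, a motif bound by Sp factors. EHMT1 lies at chr9:137618755-137619054 on the plus strand, EZH1 at chr17:42744991-42745290 on the minus strand, KDM5C at chrX:53225158-53225457 on the minus strand and KDM6A at chrX:44872938-44873237 on the plus strand.
EHMT1: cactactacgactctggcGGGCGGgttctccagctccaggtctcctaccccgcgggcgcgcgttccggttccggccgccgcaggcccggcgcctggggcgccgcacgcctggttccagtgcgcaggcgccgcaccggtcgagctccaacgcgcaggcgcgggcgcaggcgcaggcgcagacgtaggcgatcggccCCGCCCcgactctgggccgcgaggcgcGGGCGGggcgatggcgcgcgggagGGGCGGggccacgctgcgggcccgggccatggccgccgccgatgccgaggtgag
EZH1: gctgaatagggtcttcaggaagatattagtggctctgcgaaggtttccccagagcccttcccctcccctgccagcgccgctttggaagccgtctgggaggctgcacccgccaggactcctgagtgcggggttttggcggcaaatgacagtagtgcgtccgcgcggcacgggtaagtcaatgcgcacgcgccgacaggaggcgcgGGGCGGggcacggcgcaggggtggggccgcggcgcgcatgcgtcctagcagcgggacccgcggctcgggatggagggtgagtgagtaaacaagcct
KDM5C: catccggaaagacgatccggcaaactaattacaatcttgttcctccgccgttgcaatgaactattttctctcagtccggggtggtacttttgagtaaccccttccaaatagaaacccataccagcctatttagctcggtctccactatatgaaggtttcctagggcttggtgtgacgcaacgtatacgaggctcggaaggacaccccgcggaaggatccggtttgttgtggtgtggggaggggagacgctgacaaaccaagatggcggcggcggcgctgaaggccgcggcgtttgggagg
KDM6A: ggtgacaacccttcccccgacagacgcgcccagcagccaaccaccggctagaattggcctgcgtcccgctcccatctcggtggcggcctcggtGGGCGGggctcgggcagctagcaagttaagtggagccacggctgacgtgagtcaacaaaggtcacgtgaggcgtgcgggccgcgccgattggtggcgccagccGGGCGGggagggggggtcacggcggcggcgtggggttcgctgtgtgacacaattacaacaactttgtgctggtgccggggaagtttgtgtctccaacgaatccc
The motif stood 4 times in the EHMT1 window, 1 time in that of EZH1, 2 times in that of KDM6A and 0 times in that of KDM5C. Of the 48 members 29 matched the table, and 79.3% of these 29 windows held GGGCGG or CCGCCC on either strand, against 15786 of all 35116 promoters of the same length. The CCAAT box (CCAAT or ATTGG) was in 37.9% of the members' windows and in 34.6% of all, and TATAAA or TTTATA was in 0% of the members' windows and in 11.5% of all. The median GC content was 66.7% over the members' windows and 58.7% over all promoters, so the shares are not matched for base composition. DOT1L, SUV39H1, KDM2A and PRDM10, described below, had no entry.

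Total counts ran from 14454113 to 24693020 per library, and the 48 members had between 80 and 5004 counts in each. Libraries carrying the same replicate number deviated together from their group means, with correlations across genes of 0.43 to 0.871 in 9 of 9 pairs. The 18 pairs with different numbers ran from -0.804 to 0.204. Deviations cancel out within a group, so these lower values partly follow from the higher ones. Replicate number was a block in the test because libraries of one number deviated together. The test was edgeR's quasi-likelihood F test over all 18284 genes, with Benjamini-Hochberg adjustment and a threshold of 0.05. A gene past that threshold is called changed here. The biological coefficient of variation was 5.64% with the block and 23.7% without it. Of 15 endothelial markers 13 were measured, while PECAM1 and CLDN5 were not among the genes tested. The summed level of those 13 was 760.9 to 1059 CPM (counts scaled to the size of the library) in AMI-5 libraries, 990.0 to 1279 CPM in AMI-1 libraries and 915.3 to 1339 CPM in control libraries. By mean control level ENG (480 CPM), CDH5 (177.9 CPM) and TIE1 (159.8 CPM) were the highest of these markers. KDR was at 17.61 CPM in controls, and TEK, ROBO4, ERG and EGFL7 lay between TIE1 and KDR. The lowest in controls were ICAM2 (8.905 CPM), FLT1 (7.059 CPM), VWF (6.963 CPM), EMCN (4.186 CPM) and ESAM (1.147 CPM). Markers of smooth muscle and pericytes (7 of 8 measured) summed to 497.9 to 796.9 CPM with AMI-5, 567.4 to 808.4 CPM with AMI-1 and 550.6 to 895.0 CPM in controls. Fibroblast markers (5 of 6 measured, mostly COL1A1) summed to 2411 to 3109 CPM with AMI-5, 3060 to 4085 CPM with AMI-1 and 2951 to 4387 CPM in controls. The keratins KRT8 and KRT18, the 2 of 6 epithelial markers measured, summed to 200.9 to 372.1 CPM with AMI-5, 264.3 to 391.7 CPM with AMI-1 and 237.4 to 411.0 CPM in controls, and of 5 leukocyte markers only CD14 was measured, at no more than 2.91 CPM in any library. The part of these markers in the results below was not tested.

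With AMI-5, 7 members fell and 1 rose against the DMSO controls. The genes that fell were the H3K79 methyltransferase DOT1L, the H3K9 methyltransferases EHMT1, EHMT2 and SUV39H1, the H3K27 methyltransferase EZH1, the H3K4 demethylase KDM5C and the H3K36 demethylase KDM2A, and the gene that rose was the H3K27 demethylase KDM6A. Their fold changes ran from 0.669 for DOT1L to 1.18 for KDM6A. The 8 calls are 16.7% of the 48 members, against 10.9% of all genes tested. In the lower direction 7 members were called, against 7.51% of all genes, and in the higher direction 1 member, against 3.44% of all genes. By class, 5 of 30 methyltransferases fell and 0 rose, and of 18 demethylases 2 fell and 1 rose. The median log2 fold change was -0.04 for methyltransferases and -0.01 for demethylases, beside -0.005 over all genes tested. Without the replicate block 0 of the 48 members passed, and 1 had an unadjusted p under 0.05. With single libraries left out, the count of called members was 2 once the first control library or the second AMI-5 library was dropped, 3 once the third control library or the first AMI-5 library was dropped, and 16 once the third AMI-1 library was dropped. Over all fits that left out 1 library, 155 to 4283 of all genes were called.

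**Figure D1:**
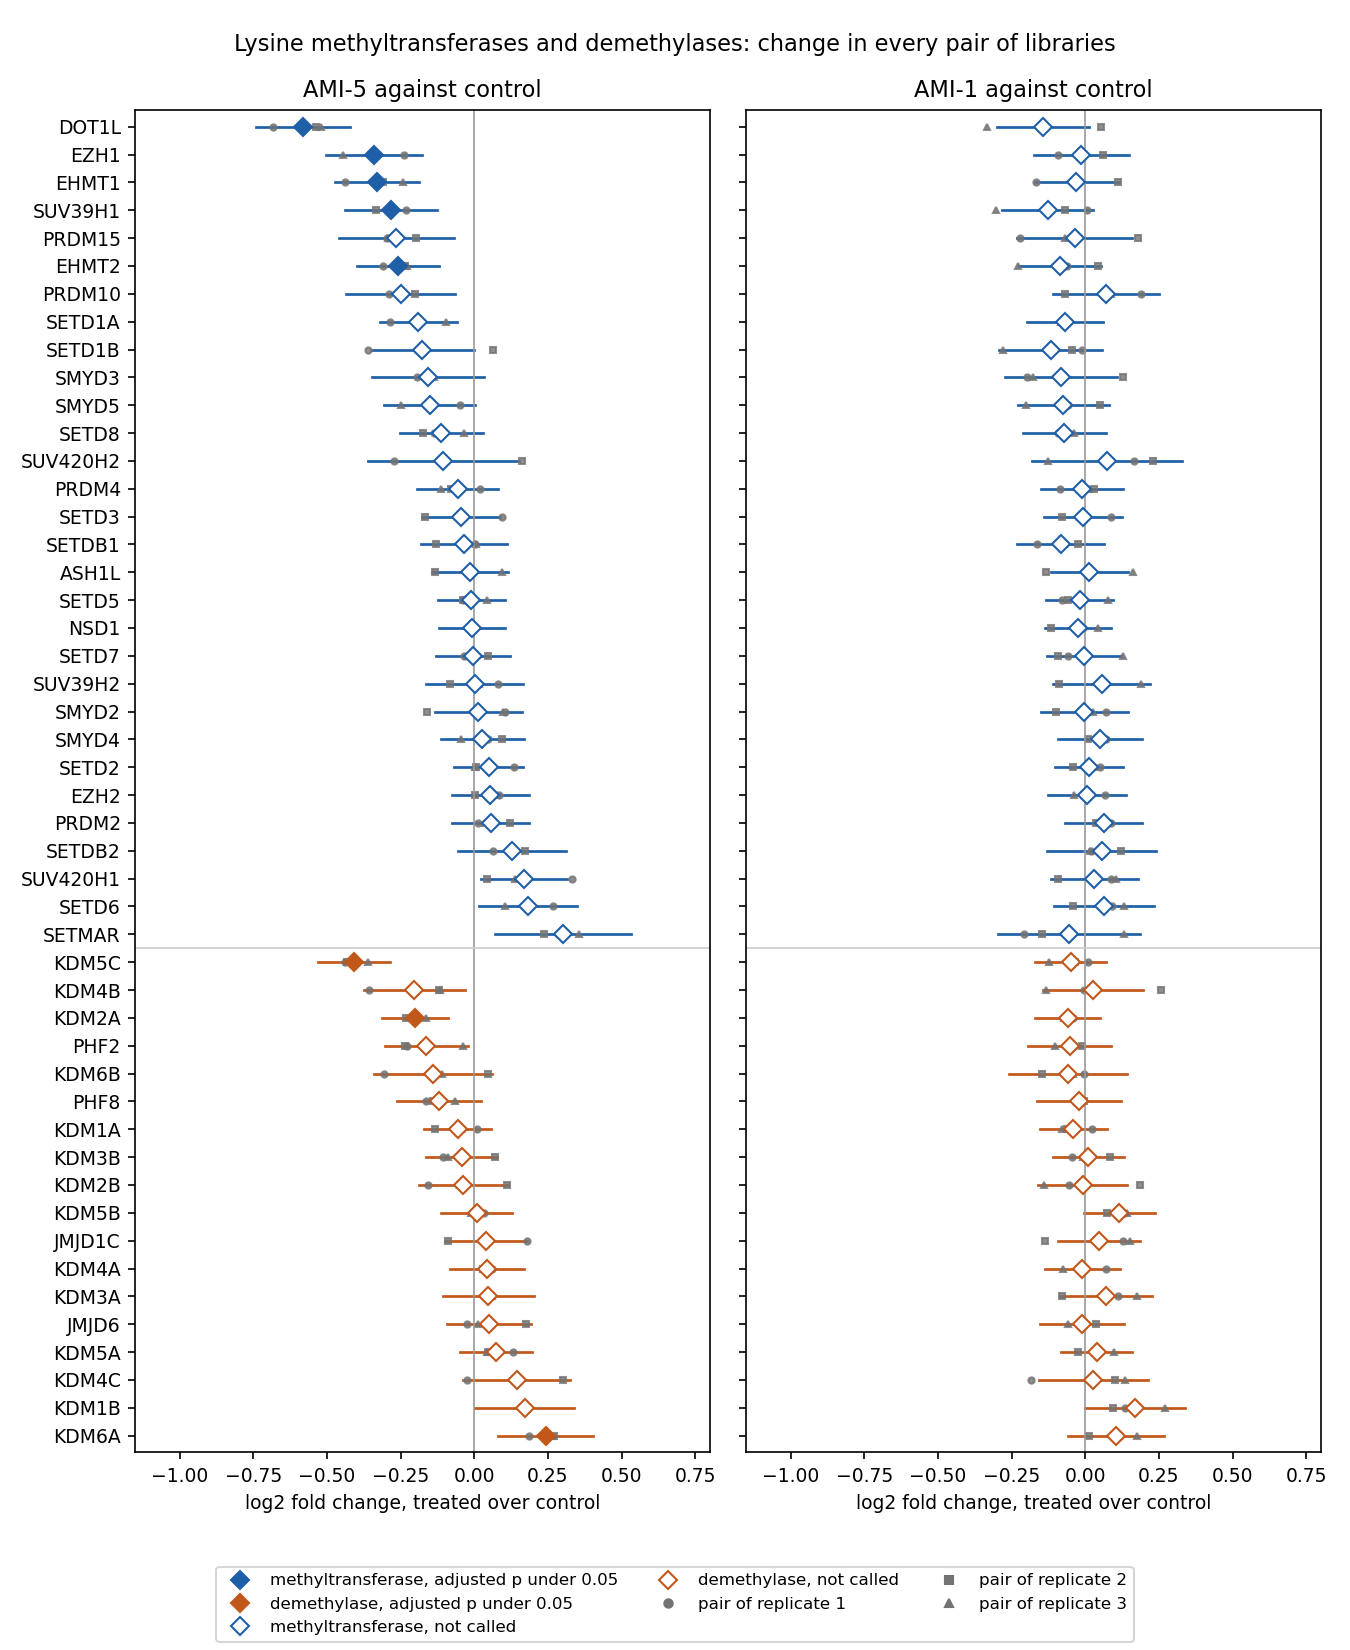
Log2 fold change of each of the 48 members, AMI-5 over control on the left and AMI-1 over control on the right, with methyltransferases above and demethylases below the grey line. Diamonds are the fitted values with 95% intervals, filled where the adjusted p is under 0.05, and grey symbols are the 3 pairs of libraries with the same replicate number: 8 diamonds are filled for AMI-5 and 0 for AMI-1, and DOT1L lies farthest from 0.

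DOT1L methylates H3K79, a modification found over transcribed gene bodies, and had the largest change of the 48 members with AMI-5. Its level was 69.1, 37.5 and 58.2 CPM in AMI-5 replicates 1, 2 and 3, 101.2, 56.5 and 66.3 CPM in AMI-1 replicates, and 110.9, 54.4 and 83.6 CPM in control replicates. The AMI-5 and control ranges overlapped, because replicate 2 was low in every group, but within each replicate number the AMI-5 library was the lowest of the 3. The means were 54.95 ± 16.1 CPM with AMI-5 and 83.0 ± 28.3 CPM in controls (SD, n = 3 each). The paired log2 differences were -0.68, -0.54 and -0.52, and the fitted log2 fold change was -0.58 ± 0.08 (SE, edgeR adjusted p = 0.00029), which held in 9 of 9 fits that each left out a library. Exons of DOT1L overlap those of PLEKHJ1 and of the antisense gene AC004490.1 on the other strand, and the strand setting of the counting is not given in the sources used here, so their reads cannot be told apart.

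Among the 7 writers of H3K9 methylation, 3 fell and 0 rose, beside 7.51% of all genes called lower and 3.44% called higher. Of the 3, EHMT2 lost its call under the GC correction described further on (log2 fold change -0.10, edgeR adjusted p = 0.118). EHMT1 and EHMT2 encode GLP and G9a, which act as a heterodimer on euchromatic H3K9. EHMT1 had 57.2, 39.2 and 51.5 CPM in AMI-5 libraries, 68.9, 52.6 and 59.8 CPM in AMI-1 libraries and 77.5, 48.7 and 60.9 CPM in control libraries. It was lower with AMI-5 in each of the 3 pairs, although the AMI-5 and control ranges overlapped, and its log2 fold change was -0.33 ± 0.07 (SE, edgeR adjusted p = 0.00636). Its call ended when the first control library or the first or second AMI-5 library was dropped, with adjusted p up to 0.121. EHMT2 had 70.2, 48.2 and 64.5 CPM in AMI-5 libraries and 87.0, 56.7 and 75.7 CPM in control libraries. Its ranges also overlapped, all 3 pairs were lower with AMI-5, and its log2 fold change was -0.26 ± 0.07 (SE, edgeR adjusted p = 0.0199). The EHMT2 call ended when the first or the third control library, or the first or second AMI-5 library, was dropped (adjusted p up to 0.184). SUV39H1, which trimethylates H3K9 at pericentric heterochromatin, had 44.95, 28.5 and 39.2 CPM in AMI-5 libraries and 52.8, 35.98 and 47.7 CPM in control libraries. It was lower in all 3 pairs within overlapping ranges, at -0.28 ± 0.07 on the log2 scale (SE, edgeR adjusted p = 0.0208). Leaving out the same 4 libraries as for EHMT2 ended its call, with adjusted p up to 0.221. All 3 genes share exon sequence with antisense transcripts in the annotation. The paralog SUV39H2 had a log2 fold change of 0.00 ± 0.08 (edgeR adjusted p = 0.993), and SETDB1, SETDB2 and PRDM2 lay between -0.04 and 0.13 without passing the test.

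EZH1 and EZH2 are the alternative catalytic subunits of Polycomb repressive complex 2, which methylates H3K27. EZH1 had 27.3, 25.5 and 21.5 CPM in AMI-5 libraries, 30.3, 33.5 and 28.99 CPM in AMI-1 libraries and 32.3, 32.2 and 29.3 CPM in control libraries. All 3 AMI-5 libraries were below all 3 control libraries and below all 3 AMI-1 libraries. The means were 24.8 ± 2.98 CPM with AMI-5 and 31.3 ± 1.68 CPM in controls (SD, n = 3 each), and the log2 fold change was -0.34 ± 0.08 (SE, edgeR adjusted p = 0.0109). Dropping the first or the third control library or the second AMI-5 library ended the call, with adjusted p up to 0.119. EZH2 had 49.8, 59.1 and 55.3 CPM in AMI-5 libraries, 49.3, 58.8 and 51.0 CPM in AMI-1 libraries and 46.99, 58.96 and 52.4 CPM in control libraries. These ranges overlapped almost wholly, and the log2 difference of 0.06 had an interval of -0.08 to 0.19 (edgeR adjusted p = 0.608). Groups that did not overlap were found for 2 members in the lower direction, EZH1 and PRDM10, or 4.17% of the 48 beside 3.36% of all genes, and for 1 in the higher direction, KDM5A, or 2.08% beside 3.98%.

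Of the writers of the other marks, 0 of 4 for H3K4, 0 of 4 for H3K36, 0 of 3 for H4K20 and 0 of 9 remaining SMYD, SETD and PRDM members were called with AMI-5. Beside 10.9% of all genes called, 0 calls in groups this small is no result about a mark. SETD7, an H3K4 monomethyltransferase that also modifies many other proteins, had 142.7, 179.0 and 148.0 CPM in AMI-5 libraries, 140.2, 162.9 and 164.3 CPM in AMI-1 libraries and 146.1, 173.4 and 150.3 CPM in control libraries. Its groups overlapped, and the interval of its log2 fold change with AMI-5 was -0.13 to 0.12. SETD1A, a catalytic subunit of a COMPASS H3K4 methyltransferase complex, stood nearest to the threshold among the members not called, at -0.19 ± 0.06 on the log2 scale (SE, edgeR adjusted p = 0.0553). With the GC correction described further on, SETD1A was at -0.01 (edgeR adjusted p = 0.926). SETMAR, a SET domain fused to a transposase, had the highest fitted value of the methyltransferases, 0.30 ± 0.11 (SE, edgeR adjusted p = 0.0837), on low levels of 7.94, 9.996 and 8.49 CPM in AMI-5 libraries and 6.49, 8.47 and 6.61 CPM in control libraries. The H3K36 writers SETD2, NSD1 and ASH1L lay between -0.01 and 0.05. Over the 25 methyltransferases not called, log2 fold changes ran from -0.26 to 0.30.

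KDM5C led the demethylases. It removes methyl groups from H3K4 and is encoded on the X chromosome. Its level was 111.0, 73.3 and 99.7 CPM in AMI-5 libraries, 151.6, 96.4 and 117.7 CPM in AMI-1 libraries and 150.5, 98.9 and 128.1 CPM in control libraries. Within each replicate number the AMI-5 library was the lowest, while the group ranges overlapped. The means were 94.7 ± 19.4 CPM with AMI-5 and 125.8 ± 25.9 CPM in controls (SD, n = 3 each), paired log2 differences were -0.44, -0.43 and -0.36, and the log2 fold change was -0.41 ± 0.06 (SE, edgeR adjusted p = 0.000489), called in 9 of 9 fits that left out a library. Its relatives KDM5A and KDM5B, which act on the same mark, were at 0.07 ± 0.06 and 0.01 ± 0.06 (SE, edgeR adjusted p = 0.434 and 0.936).

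KDM2A, which acts on H3K36 and binds CpG islands through a CXXC zinc finger, had 155.4, 126.5 and 147.8 CPM in AMI-5 libraries and 179.5, 148.6 and 165.6 CPM in control libraries. It was lower in all 3 pairs within overlapping ranges, by -0.20 ± 0.05 on the log2 scale (SE, edgeR adjusted p = 0.0207). The paralog KDM2B was at -0.04 ± 0.07 (edgeR adjusted p = 0.781). KDM6A, or UTX, an H3K27 demethylase that is also a subunit of H3K4 methyltransferase complexes, had 22.5, 32.1 and 26.0 CPM in AMI-5 libraries and 19.7, 26.6 and 21.6 CPM in control libraries. It was higher in all 3 pairs within overlapping ranges, at 0.24 ± 0.08 (SE, edgeR adjusted p = 0.0499). KDM6B, the second H3K27 demethylase, had 17.8, 12.7 and 16.0 CPM in AMI-5 libraries, 21.9, 11.1 and 16.8 CPM in AMI-1 libraries and 21.96, 12.3 and 17.3 CPM in control libraries. Replicate 2 was the lowest of each group, and the AMI-5 log2 fold change of -0.14 had an interval of -0.34 to 0.06 (edgeR adjusted p = 0.365). The KDM2A call ended when any control library, the first AMI-1 library or the first or second AMI-5 library was dropped, where adjusted p reached 0.16. The KDM6A call ended when any control or AMI-5 library or the first AMI-1 library was dropped, where adjusted p reached 0.297, and also with DESeq2.

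The other demethylases did not pass. KDM1A (LSD1), which removes methyl groups from H3K4 within the CoREST complex, had 161.1, 156.9 and 158.8 CPM in AMI-5 libraries, 162.5, 165.0 and 155.0 CPM in AMI-1 libraries and 160.1, 172.2 and 163.7 CPM in control libraries. Its levels varied little, and the log2 fold change with AMI-5 was -0.06, with an interval of -0.17 to 0.06. The 15 demethylases not called ran from -0.20 for KDM4B, an H3K9 demethylase, to 0.17 for KDM1B, with adjusted p of 0.114 or more. Over all 48 members the SE of the log2 fold change ran from 0.05 to 0.12, and for 47 of them the 95% interval lay within a change of 1.5-fold either way, DOT1L being the exception.

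**Figure D2:**
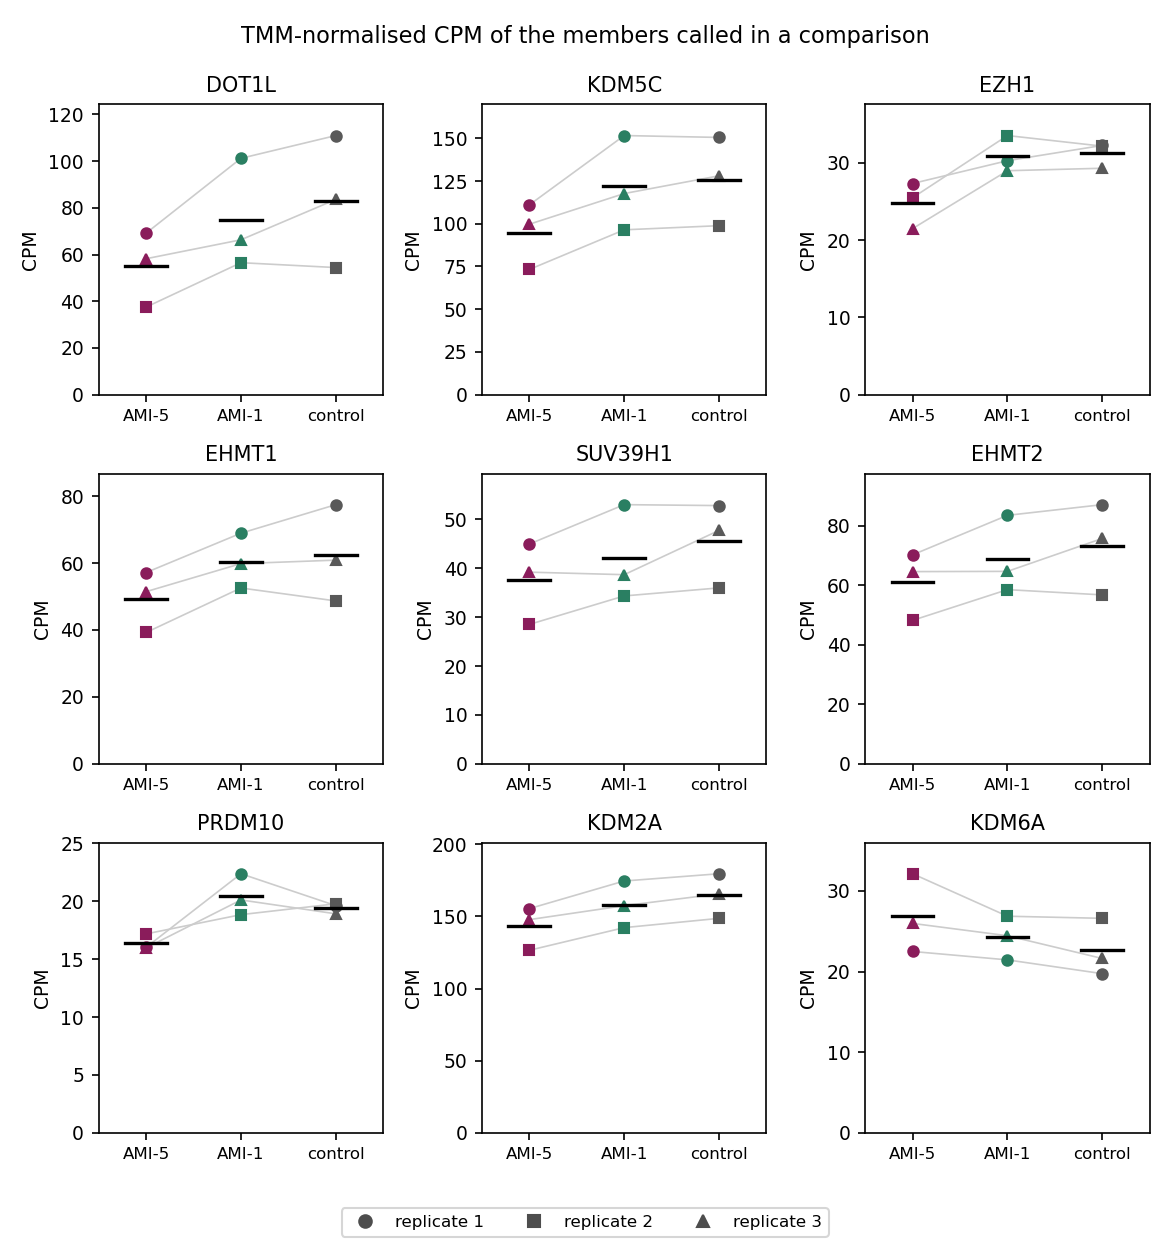
TMM-normalised CPM in every library (vertical axis from 0) for the 9 members called in any of the 3 comparisons, in the groups AMI-5, AMI-1 and control. Marker shapes give the replicate number, grey lines join libraries with the same number and black bars are means of 3: for DOT1L and KDM5C each line is lowest at AMI-5, and for EZH1 the 3 AMI-5 points lie below all others.

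**Figure D3:**
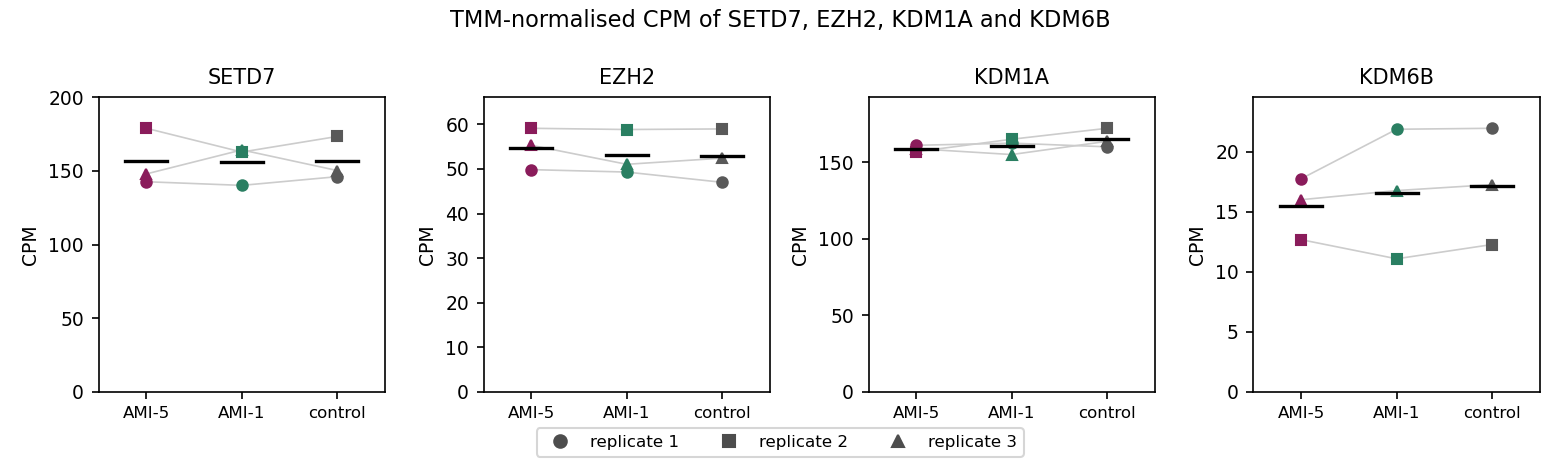
TMM-normalised CPM in every library (vertical axis from 0) for SETD7, EZH2, KDM1A and KDM6B in the groups AMI-5, AMI-1 and control, with shapes, lines and bars as for the called members. The groups overlap in each panel, from 142.7 to 179.0 CPM with AMI-5 against 146.1 to 173.4 CPM in controls for SETD7.

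With AMI-1, 0 of the 48 members passed against controls, beside 0.41% of all genes tested. That is 0 in the higher direction, beside 0.23% of all genes, and 0 in the lower direction, beside 0.18%. One member, the H3K4 demethylase KDM1B, had an unadjusted p under 0.05 in the edgeR test, and DESeq2 with the same block also called 0. KDM1B, named here after its values were seen, had 18.4, 28.0 and 21.0 CPM in AMI-1 libraries and 16.8, 26.3 and 17.4 CPM in control libraries, which overlapped, with a log2 fold change of 0.17 ± 0.08 (SE, edgeR adjusted p = 0.493). For all 48 members the 95% interval of the change lay within 1.5-fold either way, the outermost bounds being -0.30 and 0.34. The median log2 fold change was -0.01 for methyltransferases and 0.00 for demethylases, beside -0.002 over all genes. DOT1L was at -0.14 ± 0.07 (adjusted p = 0.538) and KDM5C at -0.05 ± 0.06 (adjusted p = 0.821) in the edgeR test. Groups that did not overlap were found for 1 member, KDM5B, which was higher with AMI-1 (2.08% of members beside 1.94% of all genes) and for 0 members in the lower direction, beside 2.06%.

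The compounds were compared directly at their shared dose and time, a single pair of compounds. AMI-5 cells had less mRNA than AMI-1 cells for 5 members, DOT1L, KDM5C, EHMT1, EZH1 and PRDM10, and more for 0. With the GC correction these 5 and KDM2A and KDM5B were called lower with AMI-5, and SETMAR was called higher (0.33, edgeR adjusted p = 0.03), in all 16.7% of the members beside 11.8% of all genes. Without that correction the share was lower. The 5 calls are 10.4% of the 48 members, against 5.1% of all genes tested. In the lower direction 5 members were called, against 3.48% of all genes, and in the higher direction 0, against 1.62%. Groups that did not overlap were found for 3 members in the lower direction, EZH1, PRDM10 and PRDM15 (6.25% of members beside 3.28% of all genes), and for 1 in the higher direction, SETMAR (2.08% beside 4.21%). DOT1L differed by -0.44 ± 0.08 (interval -0.60 to -0.28, adjusted p = 0.00209) and KDM5C by -0.36 ± 0.06 (interval -0.48 to -0.24, adjusted p = 0.00119) on the log2 scale in the edgeR test. EZH1 differed by -0.33 ± 0.08 (adjusted p = 0.019) and EHMT1 by -0.30 ± 0.07 (adjusted p = 0.0144). PRDM10, a zinc-finger transcription factor with a PR domain, had 16.0, 17.2 and 16.0 CPM in AMI-5 libraries, 22.4, 18.8 and 20.1 CPM in AMI-1 libraries and 19.6, 19.8 and 18.9 CPM in control libraries. All AMI-5 values were below all others, and PRDM10 differed from AMI-1 by -0.32 ± 0.09 (edgeR adjusted p = 0.0387) and from controls by -0.25 ± 0.09 (edgeR adjusted p = 0.0729).

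For other members the difference between compounds was not called, which does not show that the compounds act alike. The interval of the difference was -0.12 to 0.13 for SETD7, -0.08 to 0.18 for EZH2, -0.13 to 0.10 for KDM1A and -0.28 to 0.12 for KDM6B on the log2 scale. It was -0.31 to 0.00 for SUV39H1 and -0.31 to -0.03 for EHMT2, both called with AMI-5 against controls but not between the compounds (edgeR adjusted p = 0.26 and 0.15). KDM2A and KDM6A were also called against controls and not between compounds (edgeR adjusted p = 0.133 and 0.335). For 46 of 48 members the interval lay within 1.5-fold, the exceptions being DOT1L and SETMAR. Without the block 0 members were called between the compounds and 2 had an unadjusted p under 0.05. The count was 1 once the first AMI-1 library was dropped, 3 once the second was dropped and 11 once the third was dropped, and it was 2 once the first or the second AMI-5 library was dropped. Over all fits that left out 1 library, 192 to 3465 of all genes were called between the compounds. The KDM5C call was kept in each of the 9 fits that left out a library, while that of DOT1L ended when the first library of either compound was dropped (adjusted p up to 0.0788). EHMT1 lost its call when the first or second library of either compound was dropped (adjusted p up to 0.155), EZH1 when the first or second AMI-1 or the second or the third AMI-5 library was dropped (up to 0.129), and PRDM10 in 6 of 9 such fits (up to 0.339), those without the first or the third control, the first AMI-1 or any AMI-5 library.

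By mean control CPM, which does not account for transcript length, NSD1 (195.1 CPM), KDM1A (165.3 CPM) and KDM2A (164.6 CPM) were the highest members, and SETMAR (7.19 CPM), SUV420H2 (7.61 CPM) and SETDB2 (13.97 CPM) the lowest. Per kilobase of the longest annotated transcript, KDM1A led in every group, with 52.0 ± 0.69 CPM per kb with AMI-5, 52.6 ± 1.70 with AMI-1 and 54.0 ± 2.03 in controls (SD, n = 3 each). KDM2A (23.6 ± 2.22 CPM per kb in controls), SETD3 (23.5 ± 2.99), SETD5 (22.8 ± 1.68) and SETD7 (21.3 ± 2.00) followed and did not differ from each other beyond their spread. PRDM15 (2.34 ± 0.30 CPM per kb) and SETDB2 (2.28 ± 0.46) were lowest and within each other's spread. The longest transcript need not be the one these cells use, so levels per kilobase are approximate.

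Other genes of these pathways, outside the set, were counted in 7 lists, against a background over all genes of 7.51% called lower and 3.44% called higher with AMI-5. Against that background a single call in a list of 11 to 15 genes, or 2 in 18, is no result about the list. Of 18 other lysine methyltransferases tested, 2 fell with AMI-5 and 0 rose. MLL4, an H3K4 methyltransferase under its deposited name, was at -0.43 ± 0.07 on the log2 scale (SE, edgeR adjusted p = 0.00114). WHSC1, an H3K36 methyltransferase, was at -0.16 ± 0.05 (SE, edgeR adjusted p = 0.0399). This MLL4 is not KMT2D, which was deposited as MLL2 and was not called (-0.14 ± 0.06, edgeR adjusted p = 0.143). Of 10 other JmjC proteins, JMJD7 (-0.56 ± 0.12) and JMJD8 (-0.32 ± 0.07) fell and HR (0.62 ± 0.17) rose (SE, edgeR adjusted p = 0.00919, 0.0116 and 0.0258). HR is low, at 5.21, 5.30 and 5.15 CPM in AMI-5 libraries and 3.48, 2.42 and 4.10 CPM in control libraries, and JMJD7 shares exons with a read-through gene, JMJD7-PLA2G4B. Of 14 COMPASS subunits 1 fell, the scaffold HCFC1 (-0.24 ± 0.07, edgeR adjusted p = 0.0261), and of 11 PRC2 subunits 1 fell, the Polycomb-like protein PHF19 (-0.33 ± 0.05, edgeR adjusted p = 0.00118). Of 15 partners of LSD1 and CoREST 4 fell and 0 rose: HMG20B (-0.36 ± 0.09), MTA1 (-0.29 ± 0.07), MTA2 (-0.20 ± 0.05) and GTF2I (-0.23 ± 0.07), with edgeR adjusted p of 0.0125, 0.0125, 0.0272 and 0.0399. GTF2I has near-identical pseudogene copies and its value is uncertain. Exons of JMJD8 overlap those of STUB1, exons of HMG20B those of MFSD12 and exons of MTA1 those of TEX22. Reads of such overlapping genes cannot be told apart here. The calls of HR and GTF2I were lost with DESeq2, and without the replicate block 0 genes of the 7 lists were called in any comparison, with at most 2 in a list at an unadjusted p under 0.05. Of 15 partners and readers of H3K9 methylation 1 fell, the corepressor TRIM28 (-0.25 ± 0.06, edgeR adjusted p = 0.017). Of 20 readers of H3K4, H3K36 and H4K20 methylation 0 passed in edgeR or in DESeq2, with 6 and 2 at an unadjusted p under 0.05. With AMI-1, 0 genes of these 7 lists passed in either tool, with at most 3 in a list at an unadjusted p under 0.05. Between the compounds, 4 of these genes were lower with AMI-5, MLL4 (-0.35), JMJD7 (-0.54), PHF19 (-0.20) and HMG20B (-0.32). Their edgeR adjusted p were 0.00571, 0.0153, 0.0338 and 0.0371. Each of these calls is from a different list, and over all genes 3.48% were called lower and 1.62% higher between the compounds. A single call in a list is again no result about the list. With the GC correction PHF19 was at -0.12 and HMG20B at -0.14 between the compounds, still called (edgeR adjusted p = 0.0318 and 0.0423), as were MLL4 and JMJD7. In that fit WHSC1, ASH2L, WDR82, RBBP7, GTF2I, HDAC1, PHF21A and RCOR1 were also called lower with AMI-5 than with AMI-1. HR, JMJD4, KDM4D and KIAA0182 were called higher, KDM4D at low means of 2.44 CPM with AMI-5 and 1.67 CPM with AMI-1. The corrected fit called 11.8% of all genes between the compounds.

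Transcript GC content moved with the changes. The genes called lower with AMI-5 over the whole table had a median GC content of 58.8% and those called higher 41.5%, beside 48.1% over all genes. The 7 members that fell lay between 50.5% (EZH1) and 62.7% (DOT1L), and KDM6A, which rose, was at 43.5%. Across the 48 members, which share the 9 libraries, GC content and the AMI-5 log2 fold change had a Pearson correlation of -0.661 (Spearman -0.725), and across 14761 genes of the table the Pearson correlation was -0.504. The same property separated libraries of 1 group. The ratio of control replicate 1 to control replicate 2 correlated with GC content at 0.919 over the 48 members, and control replicate 2 was the lowest control for 11 of 11 members above 55% GC and the highest for 14 of 15 members below 45%. With a GC curve fitted per library and entered as an offset in the blocked fit, the correlation over members was -0.23. In that fit 8 members were again called with AMI-5, 16.7% of the 48 beside 13.6% of all genes. EHMT2 lost its call (log2 fold change -0.10, adjusted p = 0.118) and PRDM10 gained one (-0.26, adjusted p = 0.0177) in the edgeR test. The corrected log2 fold changes were -0.40 for DOT1L, -0.33 for KDM5C, -0.31 for EZH1, -0.26 for EHMT1, -0.17 for SUV39H1, -0.16 for KDM2A and 0.19 for KDM6A. Outside the set JMJD8, HCFC1, HMG20B and TRIM28 lost their calls, while PHF19 (-0.21), WHSC1 (-0.19), JMJD7 (-0.41), HR (0.83), MTA1 (-0.12, adjusted p = 0.0481) and MTA2 (-0.11, adjusted p = 0.0405) kept theirs at these corrected log2 fold changes, and MLL4 and GTF2I, with no GC value, got no correction of their own. In the corrected fit WDR82, RBBP7, HDAC2, RCOR1 and CDYL2 were called lower with AMI-5 besides these, and MTA1 was called lower with AMI-1. For AMI-1 the corrected fit called 3.44% of all genes and again 0 of the 48 members. The part of GC content in the changes beyond this correction was not tested.

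**Figure D4:**
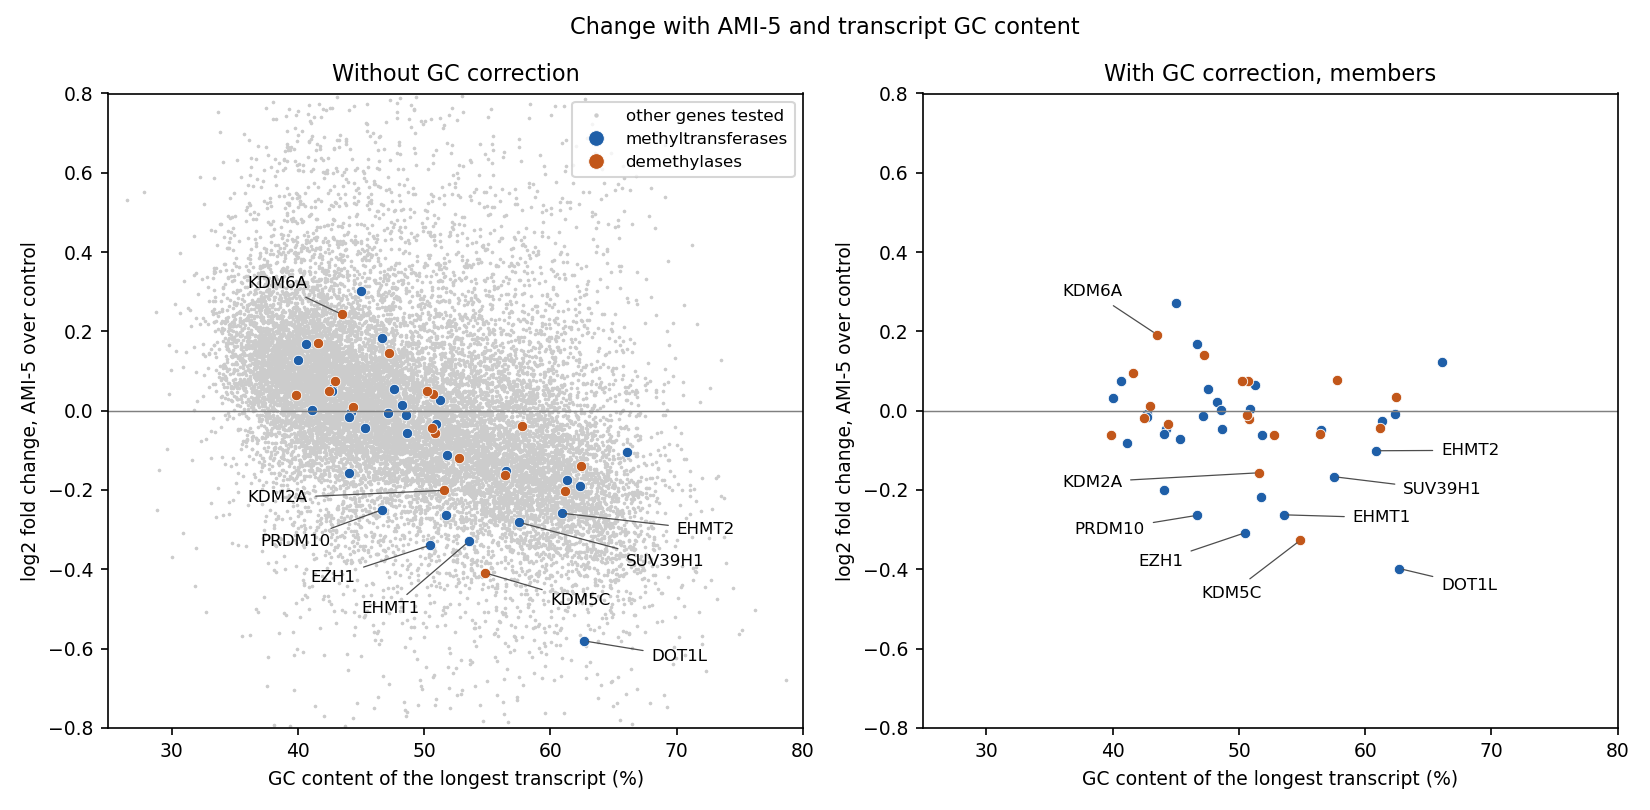
Log2 fold change of AMI-5 over control (vertical axis) against GC content of the longest transcript in percent (horizontal axis), without the GC correction on the left, where grey points are other genes tested within the plotted range, and with it on the right for the 48 members. Labelled members are those called in any comparison: without the correction the members slope downward (Pearson -0.661), and with it DOT1L, KDM5C and EZH1 still lie lowest.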

How the data were processed

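Poly-A RNA of 9 HMEC-1 libraries was analysed from tables of raw read counts per gene that the authors deposited, 1 table per compound (18385 genes for AMI-1, 18598 for AMI-5), with identical control counts in both (0 values differed). The submitters' processing notes name BWA, bedtools and the build hg19. The gene annotation, strand setting and versions were not stated in the sources used here. No gene in either table had a mean count below 10, so only the 18293 genes in both were used. The blocked edgeR fit of all 9 libraries (edgeR 4.0.16, R 4.3.3) used TMM, filterByExpr by group (9 genes removed) and robust estimation. Replicate number was the block because libraries of one number deviated together. The column codes are shared within a number, but what it stands for is not stated. CPM are TMM-normalised, pairs use log2 CPM with a prior count of 2, and SEs are those implied by the F test, with intervals at 95%. The GC correction was a lowess curve (span 0.3) per library over the 14761 genes whose mean log2 CPM exceeded 1, and GC content (longest GENCODE transcript, GRCh38) was known for 95.7% of genes. No coordinates of the counts are given, since the annotation is on another build.

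Named were members called in any comparison, SETD7, EZH2, KDM1A and KDM6B, the 3 highest and 3 lowest by control CPM, and up to 4 called genes per pathway list. Other members are named with their values as neighbours of these in a family or as the ends of a range. The members, lists, rule and block were chosen with earlier results of these data known. Alternatives were no block, DESeq2 1.42.0 with the block or its size factors, no filter, only the groups compared, the GC correction, no robust estimation (added after seeing the data) and each library left out.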

Additional observations from a re-analysis of the deposited data

How the results depend on the processing

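The count of members called with AMI-5 against controls was 8. It was 0 without the replicate block, 17 with only the AMI-5 and control libraries in the fit, and 2 to 16 with 1 library left out. In those last fits 155 to 4283 of all genes were called. Between AMI-5 and AMI-1 the count of members was 5, and it was 0 without the block, 8 with the replicate block and the GC correction, and 1 to 11 with 1 library left out. Those 8 were 16.7% of members beside 11.8% of all genes, and with 1 library left out 192 to 3465 of all genes were called. Against controls DESeq2 called 7 members with AMI-5 and between the compounds 4. Shares over all genes are not given here for DESeq2 or for the fit of only 2 groups. The biological coefficient of variation is 5.64% with the block and 23.7% without it, and the cause of the other shifts was not tested. For AMI-1 against controls the count was 0 under every alternative run. Without the block the fitted values stayed close, -0.59 for DOT1L and -0.41 for KDM5C, with SEs of 0.33 and 0.23. Over the values of the named members, 541 kept their call or stayed uncalled and moved by less than their SE. Another 61 lost a call, 8 gained one and 14 moved by at least their SE without a call. Only values called in the main fit could lose a call, and most of the values compared were uncalled there. Of the values called in the main fit or the alternative, 0 changed sign. Sign was not compared for values uncalled in both, and KDM6B with AMI-5 went from -0.14 to 0.03 under the GC correction. Leaving out robust estimation, an alternative added after seeing the data, changed no count of members. Depth limits the low members most: the largest SE of a log2 fold change with AMI-5, 0.12, belonged to SUV420H2.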
